A study of Mus musculus with 20 samples.

Results

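Leydig cells are the testosterone-producing cells that lie between the seminiferous tubules, and 10 genes of their steroid pathway and identity were followed here across 20 mouse testis libraries. The genes were taken by symbol from the deposited count table, which lists 22066 genes, and all 10 were among the 16534 genes that passed the filter on low counts and were tested. They are Lhcgr, Star, Cyp11a1, Hsd3b1, Hsd3b6, Cyp17a1, Hsd17b3, Srd5a1, Nr5a1 and Insl3. Each was measured across the 5 groups of the study, first against the whole library and then against 22 Sertoli cell genes of the same library. Sertoli cells are the nurse cells inside the tubules.

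All libraries came from snap-frozen whole testis of male NOD scid gamma (NSG) mice, labelled as 6 weeks old, with 4 libraries in each group. NSG mice lack functional B, T and natural killer cells, so that transplanted human leukaemia can grow in them. The group NC is the normal control. The group ALL carried cells of a patient-derived B-lineage acute lymphoblastic leukaemia, the B-ALL of the labels, given into the tail vein. The group VCR was given vincristine, a drug that blocks microtubule assembly, and its labels name no leukaemia cells. The groups Low-VCR and High-VCR carried the leukaemia and were given vincristine, and they were divided by a leukaemia infiltration index. Vincristine sulfate was given at 0.5 mg/kg into the peritoneum every week for 3 weeks from day 69 after the model was set up, and control groups received saline. Since day 69 alone is later than 6 weeks, the labelled age cannot be the age at sampling in the vincristine groups. Nothing in the labels says that each library is a separate mouse, so the p-values measure the spread between libraries.

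In Leydig cells luteinizing hormone (LH) binds the receptor encoded by Lhcgr and raises cyclic AMP. STAR then carries cholesterol into the mitochondrion, CYP11A1 cuts its side chain to give pregnenolone, and HSD3B, CYP17A1 and HSD17B3 turn pregnenolone into testosterone. SRD5A1 reduces testosterone to dihydrotestosterone. NR5A1, also called steroidogenic factor, is a nuclear receptor that activates many of these genes and is also made by Sertoli cells. Insl3 encodes a peptide hormone of Leydig cells that drives descent of the testis.

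Upstream sequences of 7 of the 10 genes could be read from the RefSeq table of assembly GRCm38.p6, which held no entry for Star, Cyp17a1 or Nr5a1. Windows from 250 bases before to 30 bases after the listed start were searched on both strands for the core sequence that NR5A1 binds, in the form CAAGGTC, in the variant form CAAGGCC and in the further variant form CAAGGCT. These 3 forms cannot match at the same place. Of the 8 windows of the 7 genes (Cyp11a1 has 2 listed starts), 2 held a match, beside 14.2% of all 32851 windows in the table. The 5 windows below were chosen because they belong to the 2 genes with a match, to the 2 Hsd3b copies that changed by different amounts, and to Srd5a1, whose values did not follow the other genes. Capitals mark the matches, and each sequence is written 5′ to 3′ on the gene's own strand.
Cyp11a1, chr9:58014702-58014981, plus strand: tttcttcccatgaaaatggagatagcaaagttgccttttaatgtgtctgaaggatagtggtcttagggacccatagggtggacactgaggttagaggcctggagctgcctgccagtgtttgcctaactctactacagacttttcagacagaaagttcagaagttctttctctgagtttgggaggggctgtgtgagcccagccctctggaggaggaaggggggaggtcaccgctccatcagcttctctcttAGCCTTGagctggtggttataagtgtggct
Insl3, chr8:71689002-71689281, plus strand: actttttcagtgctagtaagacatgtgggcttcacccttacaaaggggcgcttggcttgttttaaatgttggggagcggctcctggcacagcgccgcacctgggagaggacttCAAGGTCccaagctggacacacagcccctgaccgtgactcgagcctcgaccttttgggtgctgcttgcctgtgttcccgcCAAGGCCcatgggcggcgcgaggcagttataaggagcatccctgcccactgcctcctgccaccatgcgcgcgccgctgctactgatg
Hsd3b1, chr3:98859765-98860044, minus strand: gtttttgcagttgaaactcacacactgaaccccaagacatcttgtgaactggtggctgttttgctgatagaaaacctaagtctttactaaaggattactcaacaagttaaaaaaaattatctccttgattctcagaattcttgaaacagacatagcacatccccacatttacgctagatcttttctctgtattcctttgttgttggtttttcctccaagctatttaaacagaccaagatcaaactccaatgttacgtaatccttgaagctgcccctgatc
Hsd3b6, chr3:98814414-98814693, minus strand: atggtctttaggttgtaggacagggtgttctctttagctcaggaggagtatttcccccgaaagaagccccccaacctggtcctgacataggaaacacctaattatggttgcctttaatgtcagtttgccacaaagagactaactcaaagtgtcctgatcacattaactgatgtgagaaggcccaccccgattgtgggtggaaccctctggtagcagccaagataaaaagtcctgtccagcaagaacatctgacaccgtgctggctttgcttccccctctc
Srd5a1, chr13:69611434-69611713, minus strand: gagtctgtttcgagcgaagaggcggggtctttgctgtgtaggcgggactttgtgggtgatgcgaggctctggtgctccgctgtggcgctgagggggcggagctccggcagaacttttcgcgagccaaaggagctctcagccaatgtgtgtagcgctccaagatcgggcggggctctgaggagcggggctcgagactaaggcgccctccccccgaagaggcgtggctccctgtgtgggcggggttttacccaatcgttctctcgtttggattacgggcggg
The Insl3 window held CAAGGTC and CAAGGCC on the gene's strand. The Cyp11a1 window held CAAGGCT on the opposite strand, printed as its reverse complement at the listed start. The windows of Hsd3b1, Hsd3b6 and Srd5a1 held none of the 3 forms, as did those of Hsd17b3 and Lhcgr. Bases G and C made up 37.9% of the Hsd3b1 window, 48.9% of the Hsd3b6 window and 63.6% of the Srd5a1 window, against a median of 52.5% over all windows. A match describes these letters only.

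Total counts ran from 9425158 to 16357287 per library, with untreated libraries at 9425158 to 14976476 and vincristine libraries at 10645937 to 16357287. The composition of the libraries differed between untreated and vincristine groups. Levels are given as CPM, the count of a gene scaled to the library's total and corrected with TMM factors for composition. The summed CPM of 12 round spermatid genes was 8430 to 9410 without vincristine, 145 to 3640 for VCR, 4250 to 4740 for Low-VCR and 1590 to 4730 for High-VCR. The 22 Sertoli genes summed to 693 to 900 CPM in the untreated groups and to 2150 to 3870 CPM in the vincristine groups. The share of mitochondrial counts was 1.78 to 2.6% without vincristine and 4.69 to 11.9% with it. In bulk tissue a change in the number of cells of a type and a change in the RNA per cell cannot be told apart, and this holds for every value below.

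The 10 genes together took 0.111 to 0.177% of all counts in NC and 0.112 to 0.147% in ALL. Their share was 0.772 to 1.97% in VCR, 0.497 to 0.643% for Low-VCR and 0.657 to 1.55% for High-VCR. The lowest vincristine library thus lay above every untreated library.

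Engraftment alone was compared first. In ALL against NC none of the 10 genes passed an adjusted p of 0.05 in edgeR's quasi-likelihood test, and percent called over all 16534 genes was 0%. At an unadjusted p under 0.05 there was 1 of the 10, among 748 of all genes, and DESeq2 and limma-voom also called none of the 10. That gene was Hsd17b3, the dehydrogenase that makes testosterone from androstenedione. It was at 12.3, 16.3, 13.4 and 15.4 CPM in the NC libraries and at 7.62, 11.2, 7.91 and 10.3 CPM in the ALL libraries. The ALL libraries all lay below the NC libraries, with a log2 fold change of -0.63 ± 0.29 (SE) and an adjusted p of 1 in edgeR. Cyp17a1 was likewise lower in all 4 ALL libraries, at 416 to 571 CPM against 591 to 768 CPM, with a log2 fold change of -0.43 ± 0.30. Over all genes tested 5.49% had every ALL library below every NC library. The library numbers of NC and VCR run from 1 to 8, while those of the leukaemia groups lie in 2 higher ranges, so engraftment cannot be told apart from the range.

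With vincristine and no named leukaemia cells, VCR against NC, 9 of the 10 genes rose and none fell, with Srd5a1 the exception. Over all genes tested, percent called higher in this comparison was 42.1% and percent called lower 35.6%. The median log2 fold change of the 10 genes was 2.77, beside 0.10 over all genes tested. For the 9 genes that rose, all 4 VCR libraries lay above all 4 NC libraries, as they did for 39.7% of all genes tested, and the largest adjusted p was 3.02e-06 (edgeR).

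**Figure D1:**
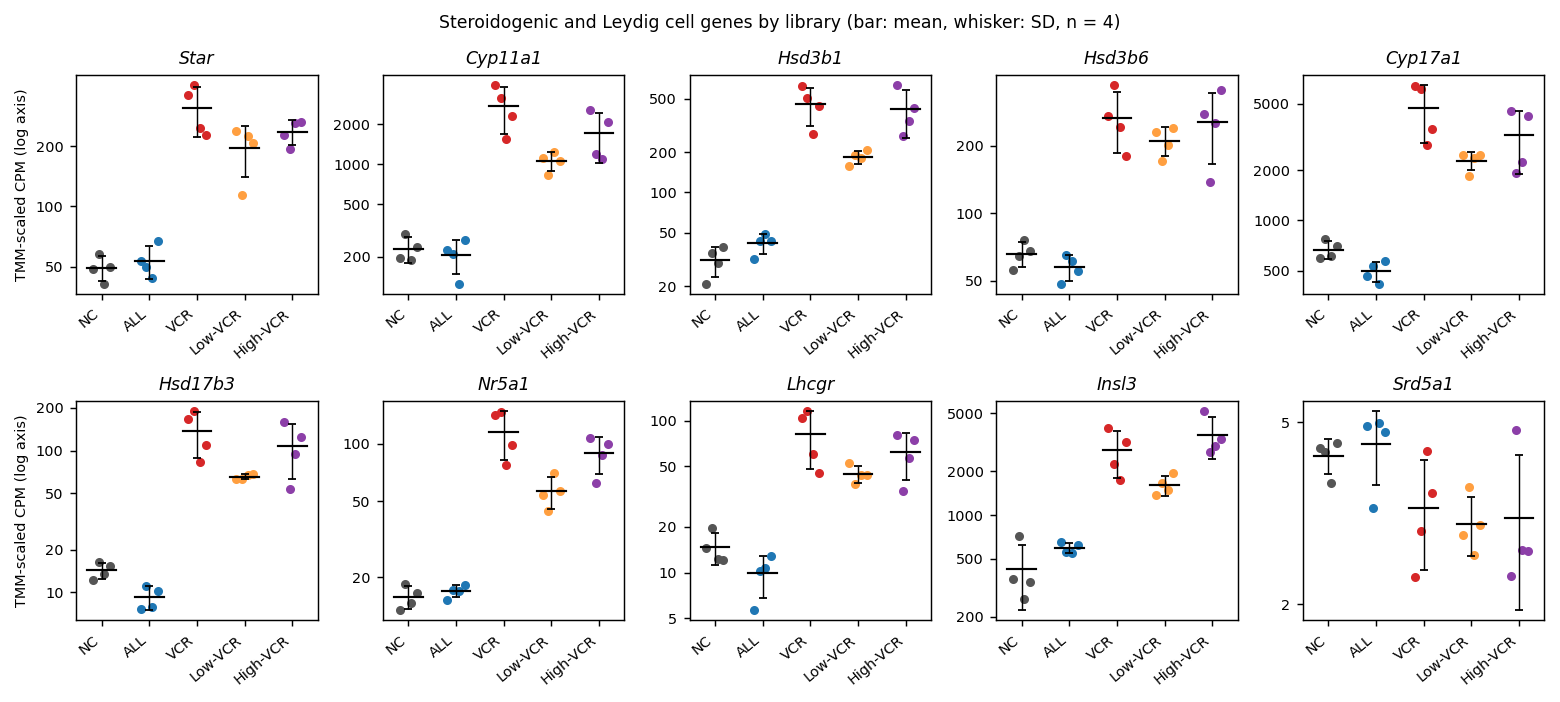
TMM-scaled CPM on log axes for the 10 genes in each of 20 libraries, by group, with the mean as a bar and the SD as a whisker (n = 4). For 9 genes every VCR library lies above every NC library, as for 39.7% of all genes tested. For the same 9 every Low-VCR and every High-VCR library lies above every ALL library, as for 35% and 40.9% of all genes. Srd5a1 spans 2.29 to 4.98 CPM over all groups.

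Lhcgr, the LH receptor, was at 14.6, 19.8, 12.3 and 12.2 CPM in NC and at 104, 60.7 and 45.4 CPM in VCR 1, VCR 3 and VCR 4, with the highest level in VCR 2 (1533 counts). Its log2 fold change was 2.47 ± 0.32. Star, the cholesterol carrier, was at 41 to 58.2 CPM in NC and at 359, 407, 246 and 227 CPM in VCR, a log2 fold change of 2.65 ± 0.24. VCR 1 and VCR 2 held the higher values of both genes. Round spermatid genes were lowest in these libraries, at 145 and 1290 CPM beside 3640 and 2470 CPM in VCR 3 and VCR 4. Star was nevertheless lower in VCR 4 than in VCR 3, and Insl3 was at 2260 CPM in VCR 2 and 3200 CPM in VCR 4. A link between spermatid genes and these levels was not tested.

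Cyp11a1, the side-chain cleavage enzyme that starts steroid synthesis, went from 195, 298, 190 and 237 CPM in NC to 3970, 3160, 1550 and 2280 CPM in VCR. Its log2 fold change was 3.57 ± 0.36. Cyp17a1, the hydroxylase and lyase that leads to androgens, went from 591 to 768 CPM in NC to 2840 to 6390 CPM in VCR, with a log2 fold change of 2.82 ± 0.32. Hsd17b3, the last step to testosterone, was at 12.3 to 16.3 CPM in NC and at 167, 191, 83.5 and 110 CPM in VCR, a log2 fold change of 3.26 ± 0.30. The estimates for the first and the last enzyme on the way to testosterone lay above that for Cyp17a1.

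The 2 Hsd3b copies changed by different amounts. Hsd3b1, the copy present from fetal life, was at 20.8, 35.5, 29.6 and 39.1 CPM in NC and at 619, 504, 273 and 441 CPM in VCR, the largest change of the 10 genes at 3.88 ± 0.30 on the log2 scale. Hsd3b6, the copy that appears in adult Leydig cells, was at 56, 64.2, 75.9 and 67.6 CPM in NC and at 271, 376, 242 and 181 CPM in VCR, a log2 fold change of 2.02 ± 0.25, the smallest of the 9 genes that rose. Both encode the dehydrogenase and isomerase that makes progesterone from pregnenolone. They are related copies in a gene cluster, and how alike their transcripts are was not tested. Any reads that fit both may have been divided or dropped in counting, and their separate values are uncertain to that extent. Hsd3b2, Hsd3b3, Hsd3b4, Hsd3b5 and Hsd3b8 of the same family together had at most 20 counts over the 4 libraries of any group. Hsd3b7, the family member of bile acid synthesis, had a mean of 4.88 CPM in NC and 24.3 CPM in VCR. Hsd3b9 had a mean of 2.2 CPM in NC and 0.109 CPM in VCR.

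Nr5a1 went from 13.4 to 18.5 CPM in NC to 141, 146, 77.6 and 98.7 CPM in VCR, a log2 fold change of 2.87 ± 0.21. Insl3 was at 362, 721, 265 and 349 CPM in NC and at 3980, 2260, 1730 and 3200 CPM in VCR, a log2 fold change of 2.72 ± 0.33. NC 2 was the highest of the NC libraries and still lay below every VCR library. Insl3 overlaps Jak3 in the annotation, and the mean of Jak3 was 6.8 CPM in NC and 27.3 CPM in VCR. Reads of the shared stretch could have been set to either gene.

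Srd5a1 did not follow the other 9 genes. It was at 4.39, 4.31, 3.68 and 4.5 CPM in NC and at 2.29, 2.89, 4.33 and 3.5 CPM in VCR, from 30 to 66 counts per VCR library. The groups overlapped, and the log2 fold change of -0.37 ± 0.24 was not called (adjusted p = 0.164, edgeR). Counts this low limit what could be seen for Srd5a1.

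In mice with leukaemia the 9 genes other than Srd5a1 rose under vincristine. In Low-VCR against ALL 9 of the 10 genes were higher and none lower, where 36.4% of all genes tested were called higher and 15.2% lower, and the median log2 fold change was 2.00 beside 0.08 over all genes. In High-VCR against ALL 9 were higher and none lower, where 42.4% of all genes were called higher and 30.5% lower, and the median was 2.61 beside 0.16. These comparisons share the ALL libraries. In both, each of the 9 genes was higher in all 4 treated libraries than in all 4 ALL libraries, as were 35% of all genes tested for Low-VCR and 40.9% for High-VCR.

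Cyp11a1 was at 225, 212, 125 and 267 CPM in ALL, at 1110, 829, 1230 and 1060 CPM in Low-VCR and at 2530, 1190, 1090 and 2090 CPM in High-VCR. Its log2 fold changes from ALL were 2.35 ± 0.34 for Low-VCR and 3.06 ± 0.35 for High-VCR. The Low-VCR libraries lay close together, while in High-VCR libraries 1 and 4 lay apart from libraries 2 and 3. Round spermatid genes summed to 1590 and 2100 CPM in High-VCR libraries 1 and 4, and to 4730 and 3000 CPM in libraries 2 and 3. Star did not split in this way, at 228 CPM in High-VCR 1 and 260 CPM in High-VCR 3. A link with the spermatid genes was not tested.

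Hsd17b3 had the largest change in both comparisons, from 7.62 to 11.2 CPM in ALL to 63 to 68.7 CPM in Low-VCR and to 160, 54, 94.6 and 124 CPM in High-VCR. The log2 fold changes were 2.82 ± 0.30 and 3.55 ± 0.30. Insl3 had the smallest change of the 9 genes in Low-VCR, from 546 to 652 CPM in ALL to 1370, 1650, 1480 and 1950 CPM, a log2 fold change of 1.44 ± 0.32 (adjusted p = 0.00115, edgeR). In High-VCR Insl3 was at 5210, 2710, 2990 and 3360 CPM, 2.58 ± 0.33 above ALL on the log2 scale. Star, at 238, 114, 224 and 207 CPM in Low-VCR and 193 to 265 CPM in High-VCR, rose by 1.87 ± 0.24 and 2.14 ± 0.24. The remaining 5 genes, Lhcgr, Hsd3b1, Hsd3b6, Cyp17a1 and Nr5a1, had log2 fold changes of 1.74 to 2.20 in Low-VCR and of 2.16 to 3.31 in High-VCR.

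Srd5a1 again was not called, at 3.24 to 4.98 CPM in ALL, 2.56 to 3.6 CPM in Low-VCR and 2.31 to 4.8 CPM in High-VCR. Its log2 fold changes were -0.58 ± 0.24 (adjusted p = 0.0541) and -0.53 ± 0.24 (adjusted p = 0.0559) in edgeR. DESeq2 called it lower in both, at -0.75 and -0.71, each with an adjusted p of 0.00872. Leaving out the library ALL 2 gave adjusted p of 0.0316 and 0.0286 in edgeR. The ALL, Low-VCR and High-VCR libraries are spread over both higher ranges of library numbers, with 2 of each group in each. Within each range the 9 other genes had mean log2 differences from ALL between 1.31 and 3.58, and a fit with the range as a term also called 9 genes in each comparison.

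The groups that received vincristine were then compared with each other. High-VCR against Low-VCR had 3 of the 10 genes higher and none lower, where 3.13% of all genes tested were called higher. Hsd3b1 was at 637, 264, 340 and 426 CPM in High-VCR and at 157, 190, 181 and 207 CPM in Low-VCR, a log2 fold change of 1.18 ± 0.27 (adjusted p = 0.0238, edgeR). Insl3 was higher by 1.15 ± 0.32 (adjusted p = 0.037) and Nr5a1 by 0.66 ± 0.20 (adjusted p = 0.0494). For Hsd3b1 and Insl3 all High-VCR libraries lay above all Low-VCR libraries, as they did for 6.16% of all genes. For Nr5a1 the libraries overlapped, at 62.4 to 107 CPM in High-VCR and 44.5 to 70.3 CPM in Low-VCR. Without Low-VCR 1, Low-VCR 3, High-VCR 1 or High-VCR 4 none of the 10 genes was called, and without Low-VCR 2 there was 1. A fit of these 2 groups alone called none of the 10, and the share of all genes it called is not given here. The other 7 genes had estimates of 0.05 to 0.72. Round spermatid genes also moved in this comparison, with 8 of 12 lower, and their part in the result was not tested.

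Low-VCR against VCR had 7 of the 10 genes lower and none higher, where 13.6% of all genes were called lower. Cyp11a1 fell by 1.37 ± 0.33 on the log2 scale, Hsd3b1 by 1.32 ± 0.28 and Nr5a1 by 1.04 ± 0.20, with all Low-VCR libraries below all VCR libraries, as for 11.5% of all genes. Hsd3b6, Insl3 and Srd5a1 were not called. Without VCR 2 or Low-VCR 2 there were 4 genes lower, and a fit of the 2 groups alone called none of the 10. The share of all genes called in these fits is not given here. In the same comparison 11 of 12 macrophage genes were lower and 11 of 12 round spermatid genes higher, and their part in the result was not tested. High-VCR against VCR had none of the 10 called by edgeR, DESeq2 or limma-voom and none at an unadjusted p under 0.05, where 0.00605% of all genes were called. Estimates there ran from -0.67 for Cyp11a1 to 0.35 for Insl3. In both comparisons leukaemia and the range of library numbers cannot be told apart.

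The response in Low-VCR, against ALL, was smaller than the response in VCR, against NC, for 2 of the 10 genes, where 1.26% of all genes had a smaller one. The difference of the log2 fold changes was -1.74 ± 0.39 for Hsd3b1 (adjusted p = 0.0329) and -1.13 ± 0.29 for Nr5a1 (adjusted p = 0.041) in edgeR. With scaling on Sertoli genes the values were -1.58 ± 0.31 (adjusted p = 0.0493), where 0.0907% of all genes had a smaller response, and -0.95 ± 0.21 (adjusted p = 0.059). Leaving out a library under that scaling gave 2 genes without VCR 3, VCR 4 or Low-VCR 4 and none without any other. Under TMM scaling neither gene's call held without NC 1, NC 3, any ALL library, VCR 2, Low-VCR 1 or Low-VCR 3. The response in High-VCR differed from that in VCR for none of the 10, with 0.00605% of all genes called, none of the 10 at an unadjusted p under 0.05 and none in DESeq2.

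Since Sertoli genes also took a larger share of the vincristine libraries, each gene was set against 22 Sertoli genes of the same library. The Sertoli-relative level is the count divided by the library's median ratio over those genes, with the NC mean set to 1. The reference itself is not uniform. Of its 22 genes, 21 rose in VCR against NC under TMM scaling (median log2 fold change 1.92), and under its own scaling 5 were higher and 6 lower, from -1.89 for Nkd1 to 0.95 for Shbg. Over all genes tested, Sertoli scaling moved the median to -1.71 in VCR against NC, -1.62 in Low-VCR against ALL and -1.73 in High-VCR against ALL.

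Relative to Sertoli genes, 7 of the 10 genes were higher and 1 lower in VCR against NC, where 7.81% of all genes were called higher and 74.2% lower. Hsd3b1 stood at 4.43, 3.74, 3.12 and 4.86 times the NC mean, a log2 difference of 2.01 ± 0.23, and Cyp11a1 at 3.83, 3.16, 2.38 and 3.38 times, a log2 difference of 1.67 ± 0.30. Hsd17b3 (1.37 ± 0.18), Nr5a1 (0.99 ± 0.15), Cyp17a1 (0.91 ± 0.26), Insl3 (0.86 ± 0.33) and Star (0.77 ± 0.23) were also higher. The VCR and NC libraries overlapped only for Insl3 among these 7. Lhcgr was at 0.55 ± 0.25 with an adjusted p of 0.0501 (edgeR). Hsd3b6 was at 0.16 ± 0.19, with VCR libraries at 0.913, 1.31, 1.3 and 0.937 and NC libraries at 0.924 to 1.15. Srd5a1 was lower by 2.13 ± 0.38 on the log2 scale, at 0.12, 0.157, 0.362 and 0.282 of the NC mean.

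**Figure D2:**
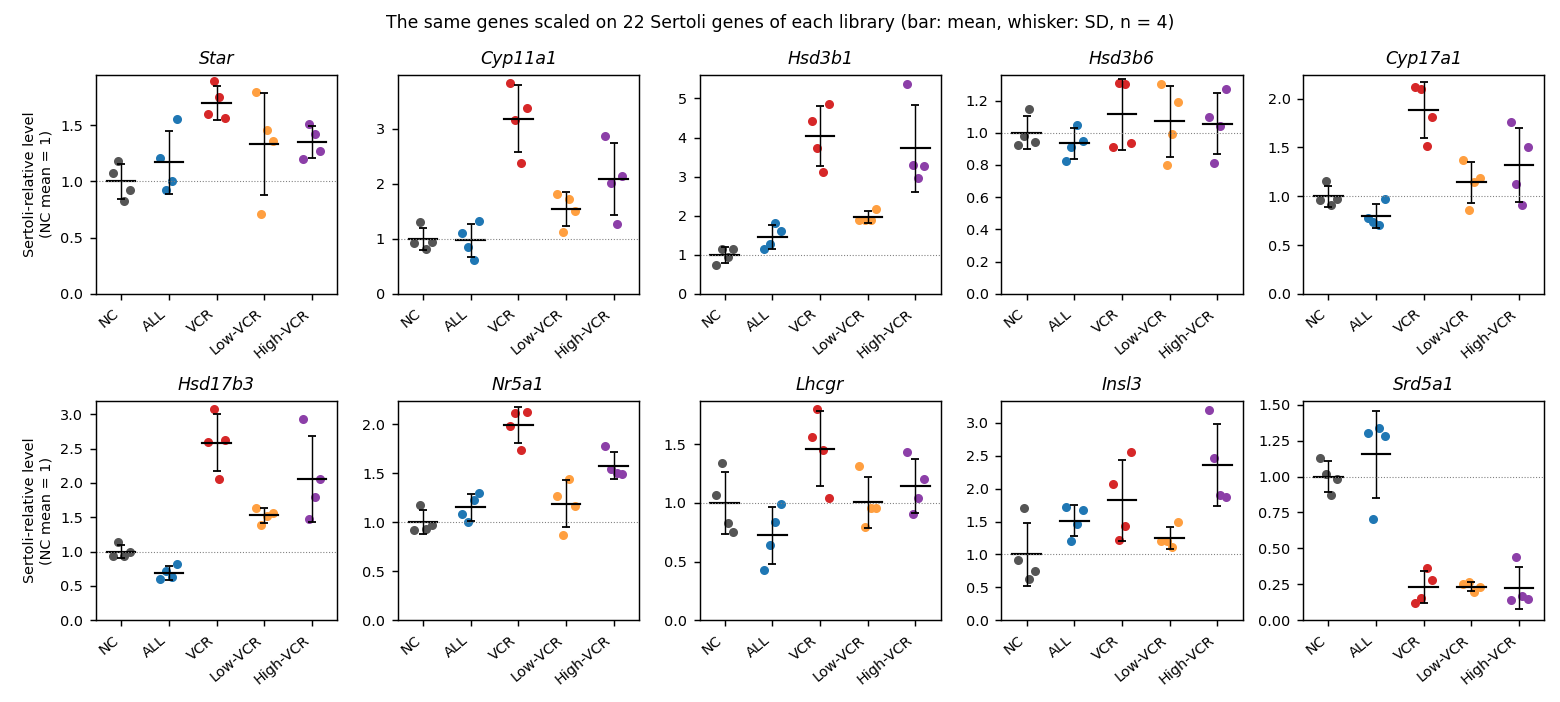
Level of each of the 10 genes relative to 22 Sertoli genes of the same library, by group, with the NC mean set to 1 (dotted line), the group mean as a bar and the SD as a whisker (n = 4). Hsd3b1 lies at 3.12 to 4.86 in VCR, Hsd3b6 at 0.913 to 1.31 and Srd5a1 at 0.12 to 0.362.

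In the leukaemia groups fewer genes were called against Sertoli genes. In Low-VCR against ALL 2 were higher, where 2.82% of all genes were: Hsd17b3 at 1.14 ± 0.19 and Cyp11a1 at 0.66 ± 0.29 (adjusted p = 0.0466, edgeR). Srd5a1 was lower by 2.29 ± 0.38, where 77.1% of all genes were called lower. In High-VCR against ALL 6 genes were higher, where 5.33% of all genes were: Hsd17b3 (1.58 ± 0.19), Hsd3b1 (1.35 ± 0.22), Cyp11a1 (1.10 ± 0.30), Cyp17a1 (0.73 ± 0.26), Lhcgr (0.66 ± 0.25) and Nr5a1 (0.45 ± 0.15). Srd5a1 was lower by 2.38 ± 0.38, where 75.4% of all genes were called lower. Star and Hsd3b6 were called in neither comparison, with estimates of 0.18 to 0.21. Nor was Insl3, at -0.27 ± 0.33 in Low-VCR (adjusted p = 0.452) and 0.64 ± 0.33 in High-VCR (adjusted p = 0.0816, edgeR). Hsd17b3 and Cyp11a1 passed in all 3 comparisons of vincristine with its untreated group. For Cyp11a1 the treated and ALL libraries overlapped in both leukaemia groups, while for Hsd17b3 they did not. Cyp17a1 and Lhcgr also overlapped in High-VCR against ALL.

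The other comparisons under Sertoli scaling gave few calls. In High-VCR against Low-VCR only Hsd3b1 was called, at 0.92 ± 0.22 (adjusted p = 0.0326, edgeR), where 0.254% of all genes were called higher. The Sertoli-relative level of Hsd3b1 was 5.38, 3.31, 2.96 and 3.26 in High-VCR and 1.89, 1.9, 1.9 and 2.18 in Low-VCR. The call was lost without Low-VCR 1, Low-VCR 3, High-VCR 1 or High-VCR 4. In Low-VCR against VCR 4 genes were lower, where 3.16% of all genes were: Cyp11a1 (-1.05 ± 0.30), Hsd3b1 (-1.04 ± 0.22), Hsd17b3 (-0.76 ± 0.18) and Nr5a1 (-0.74 ± 0.15). High-VCR against VCR and ALL against NC had none, where 0.00605% and 0.0181% of all genes were called, with 1 and 2 of the 10 genes at an unadjusted p under 0.05 and none in DESeq2.

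**Figure D3:**
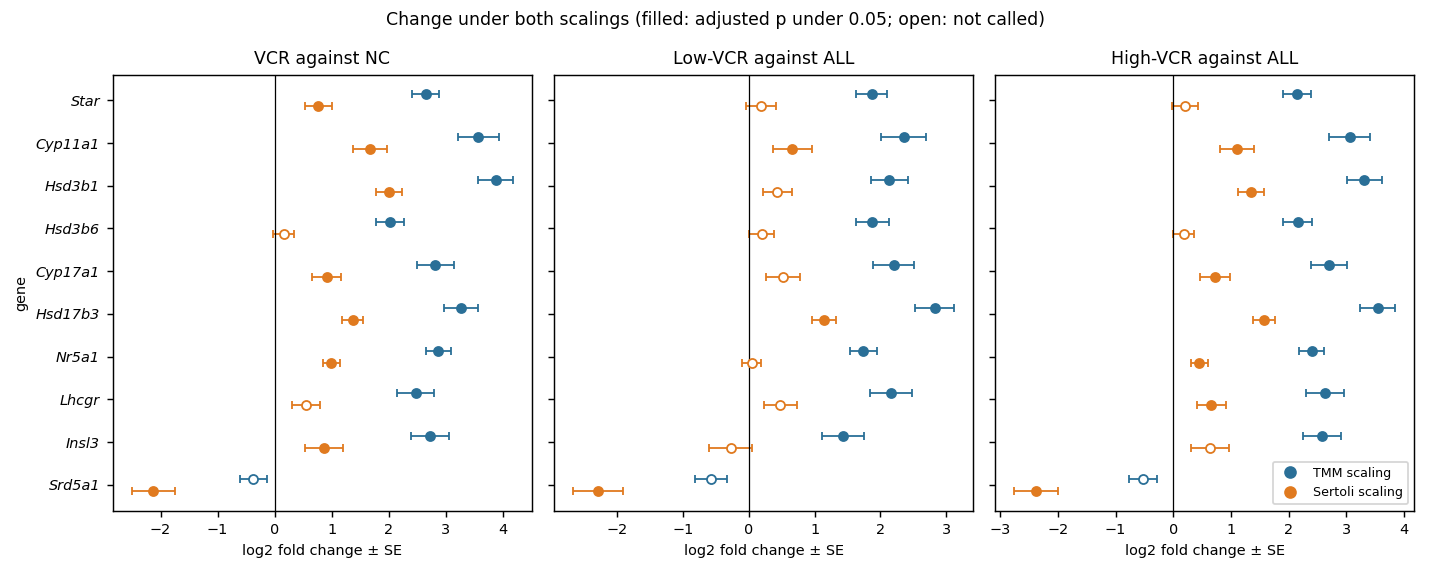
Log2 fold change with its SE (horizontal axis) for the 10 genes in the 3 comparisons of vincristine with its untreated group, under TMM scaling (blue) and Sertoli scaling (orange), filled where the adjusted p was under 0.05. Under Sertoli scaling the estimates for Hsd3b6 lie between 0.16 and 0.20 and those for Srd5a1 between -2.38 and -2.13.

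An exact two-sided permutation test of the Sertoli-relative values was run for each of the 10 genes in the 7 comparisons, 70 tests. With 4 against 4 libraries its smallest possible p is 0.0286. Of the 70 tests 25 reached it, with a Benjamini-Hochberg adjusted p of 0.0801, so none passed 0.05 after adjustment. Hsd17b3 reached the smallest p in all 3 comparisons of vincristine with its untreated group, and so did Hsd3b1. Both were higher in 4 of 4 treated libraries than in every untreated library in each of the 3. Srd5a1 reached it in the same 3 comparisons, with 4 of 4 treated libraries lower. Over all genes tested, the treated libraries all lay above the untreated ones for 7.3% of genes in VCR, 2.4% for Low-VCR and 4.54% for High-VCR, and all lay below for 71.3%, 73.6% and 72.3%.

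The result depends on which cells serve as the reference. With 12 macrophage genes in place of Sertoli genes, 5 of the 10 genes were called in VCR against NC. Hsd3b1 was higher, where 0.738% of all genes were, and Lhcgr, Hsd3b6, Star and Srd5a1 were lower, where 92.2% of all genes were. In Low-VCR against ALL this reference gave Hsd17b3 higher, where 0.859% of all genes were. Nr5a1, Insl3 and Srd5a1 were lower there, where 86.5% of all genes were. The macrophage genes themselves summed to 141 to 165 CPM in NC and 746 to 1230 CPM in VCR, with 12 of 12 higher (median log2 fold change 3.10). They summed to 148 to 188 CPM in ALL, 544 to 665 CPM in Low-VCR and 576 to 1090 CPM in High-VCR. With 14 endothelial or 10 peritubular myoid genes as the reference, 9 of the 10 genes were called in Low-VCR against ALL in place of 3, with 8 higher and Srd5a1 lower under each. Over all genes, 7.93% were called higher and 63.1% lower with the endothelial reference, and 11.4% and 60.5% with the peritubular one. In VCR against NC under TMM scaling 12 of the 14 endothelial genes rose and none fell (median log2 fold change 2.00), from 53.2 to 66 CPM in sum to 197 to 307 CPM. Of the 10 peritubular myoid genes 8 rose and 1 fell (median 1.45), from 415 to 480 CPM to 591 to 910 CPM. What the shifts of these cell types contribute to the Leydig genes was not tested.

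Ratios of counts within a library do not depend on any scaling. They were formed for 5 pairs chosen after the values had been seen, and since counts are not divided by gene length, only their change between groups is described. The ratio of Hsd3b1 to Hsd3b6 was 0.474 ± 0.108 (SD, n = 4) for NC, 0.728 ± 0.0809 for ALL, 1.8 ± 0.658 for VCR, 0.889 ± 0.175 for Low-VCR and 1.69 ± 0.508 for High-VCR. Every ALL library (0.655 to 0.806) lay above every NC library (0.372 to 0.578), and every VCR library (1.13 to 2.44) lay above both. High-VCR libraries all lay above Low-VCR libraries, whose highest value was 1.11. VCR against ALL was not among the 35 tests. The other comparisons here, and every tested one in which a pair's groups did not overlap, had an exact permutation p of 0.0286. That is the smallest that 4 against 4 allows, and it gave an adjusted p of 0.0626 over 35 tests.

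The ratio of Hsd17b3 to Cyp17a1, consecutive enzymes on the way to testosterone, was 0.0215 ± 0.000574 (SD, n = 4) in NC and 0.0186 ± 0.00197 in ALL. It was 0.0295 ± 0.00239 in VCR, 0.0291 ± 0.00365 for Low-VCR and 0.0338 ± 0.0065 for High-VCR. Every vincristine library lay above every untreated library. The ratio of Srd5a1 to Hsd17b3 moved the other way, from 0.265 to 0.356 in NC and 0.288 to 0.643 in ALL to 0.0136 to 0.0889 in the 3 vincristine groups. The ratio of Cyp11a1 to Star was 4.63 ± 0.464 in NC and 8.79 ± 2.17 in VCR, without overlap. It was 3.82 ± 0.649 in ALL, 5.64 ± 1.14 for Low-VCR and 7.33 ± 2.92 for High-VCR, and High-VCR 3 at 4.2 fell within the ALL range.

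The ratio of Insl3 to Lhcgr was 21.5 to 36.4 in NC and 115, 54.4, 50.4 and 48.4 in ALL, so that all ALL libraries lay above all NC libraries. Low-VCR libraries, at 26.2 to 44.8, lay below ALL, and High-VCR libraries, at 44.7 to 78.8, overlapped ALL. The value of 115 in ALL 1 rests on 52 counts of Lhcgr.

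**Figure D4:**
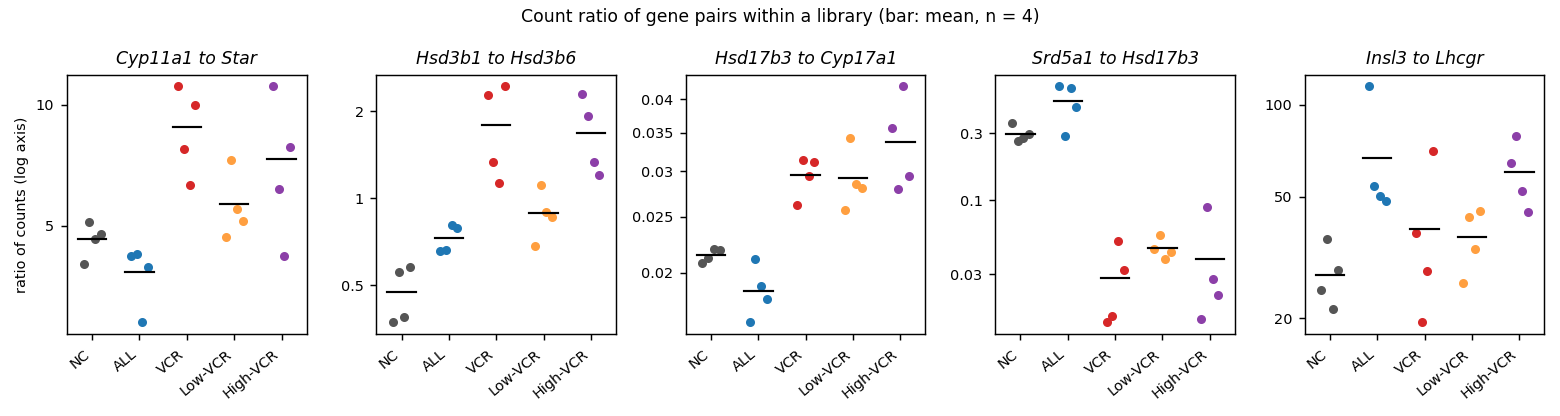
Ratio of counts of 5 gene pairs within each library on log axes, by group, with the group mean as a bar (n = 4). The Hsd3b1 to Hsd3b6 ratio has a mean of 0.474 in NC and 1.8 in VCR, and the Srd5a1 to Hsd17b3 ratio has a mean of 0.297 in NC and 0.0281 in VCR.

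The order of the group means under TMM scaling was alike for most genes. VCR had the highest mean of 8 genes, High-VCR the next and Low-VCR the third, above ALL and NC. For Insl3 High-VCR had the highest mean, and for Srd5a1 ALL had. Between VCR and High-VCR none of the 10 differed by the test, and between High-VCR and Low-VCR only Hsd3b1, Insl3 and Nr5a1 did.

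Across the 20 libraries the log2 CPM of 9 of the genes followed the mean of the other members closely, with Pearson's r of 0.926 for Insl3 to 0.99 for Nr5a1, and Srd5a1 ran opposite at -0.738. These points share the step between untreated and vincristine libraries. Over the 12 vincristine libraries and relative to Sertoli genes, r was 0.908 for Nr5a1, 0.898 for Cyp11a1 and 0.879 for Cyp17a1, but 0.344 for Insl3, 0.255 for Hsd3b6 and -0.368 for Srd5a1. Among genes outside the lists, those most like the members' mean over 20 libraries were Mccc1 and Alg2 (r = 0.995), Sparc and Slc6a8 (0.994), and Acsbg1 and Cat (0.993). Over the 12 vincristine libraries relative to Sertoli genes they were Elovl5 (0.991), Cat (0.981), Cnih1 (0.976), Esyt1 (0.975), Idh1 (0.973) and Anxa6 (0.97). These correlations share the libraries and, in the second set, the Sertoli scaling factor.

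Further lists of genes around the pathway were read against the shares of all genes tested. These were 42.1% higher and 35.6% lower in VCR against NC, 36.4% and 15.2% in Low-VCR against ALL, and 42.4% and 30.5% in High-VCR against ALL. Under Sertoli scaling they were 7.81% higher and 74.2% lower in VCR against NC. A list whose counts lie near these shares shows nothing of its own.

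The supply of cholesterol to the mitochondrion was followed with 12 other genes. In VCR against NC 9 rose and 3 fell (median log2 fold change 1.98). In Low-VCR against ALL 8 rose and 1 fell, and in High-VCR against ALL 9 rose and 2 fell. Npc2, which moves cholesterol out of lysosomes, rose by 2.02 ± 0.16, 1.47 ± 0.16 and 1.85 ± 0.16 in these 3 comparisons. Soat1, which esterifies cholesterol for storage, rose by 2.19 ± 0.18 in VCR and 1.94 ± 0.18 in High-VCR, and Tspo, a protein of the outer mitochondrial membrane, by 2.32 ± 0.25 in Low-VCR. Acbd3, whose protein binds TSPO, fell by 1.01 ± 0.20, 0.61 ± 0.19 and 0.94 ± 0.19. Lipe, the hormone-sensitive lipase, fell by 2.24 ± 0.56 in VCR, and Plin2, a coat protein of lipid droplets, by 0.57 ± 0.22 in High-VCR. Round spermatid genes also fell in the 3 comparisons, 12, 5 and 11 of 12, and their part in these falls was not tested. Under Sertoli scaling 3 of the 12 were higher and 4 lower in VCR against NC.

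The 7 electron donors and helpers of the steroidogenic enzymes all rose in VCR against NC and in High-VCR against ALL, and 6 rose in Low-VCR against ALL. H6pd, which supplies NADPH inside the endoplasmic reticulum, rose by 2.60 ± 0.18, 1.87 ± 0.18 and 2.47 ± 0.18 in the same order. Cyb5a, the cytochrome that favours the lyase step of CYP17A1, was at 20.6 to 28.8 CPM in NC and at 78.5 to 135 CPM in VCR, and rose by 1.78 ± 0.19 for Low-VCR and 2.04 ± 0.20 for High-VCR. Cyb5r3, a cytochrome b5 reductase, rose by 1.98 ± 0.18 in VCR. Against Sertoli genes 2 of the 7 were higher and 2 lower in VCR against NC.

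Genes of LH signalling and cyclic AMP moved in both directions, in shares near those of all genes in VCR and High-VCR. Of 16, 8 rose and 5 fell in VCR against NC, 8 rose and 2 fell in Low-VCR against ALL, and 8 rose and 5 fell in High-VCR against ALL. Gnas, the stimulatory G protein subunit, rose by 2.00 ± 0.24 for Low-VCR and 2.35 ± 0.24 for High-VCR, and the adenylyl cyclase gene Adcy9 by 2.05 ± 0.21 and 2.38 ± 0.21. Arrb2, an arrestin that uncouples receptors, rose by 2.14 ± 0.22 in VCR and Epas1, a hypoxia-inducible factor subunit, by 1.80 ± 0.18. Creb1, the factor that answers to cyclic AMP, fell by 1.09 ± 0.13, 0.37 ± 0.13 and 0.59 ± 0.13 in the 3 comparisons. The kinase subunit gene Prkar2a fell by 2.00 ± 0.35 in VCR, and the kinase anchor gene Akap1 by 0.87 ± 0.36 for Low-VCR and 1.32 ± 0.36 for High-VCR. The part of the fall in round spermatid genes in these values was not tested. Under Sertoli scaling none of the 16 was higher and 9 were lower in VCR against NC.

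Of 15 transcription regulators tested, 9 rose and 3 fell in VCR against NC, 6 rose and 2 fell in Low-VCR against ALL, and 8 rose and 2 fell in High-VCR against ALL. The share that rose in Low-VCR, 6 of 15, was near that of all genes. Nr0b1, a repressor of NR5A1 activity that Sertoli cells also make, rose by 1.65 ± 0.16, 1.47 ± 0.16 and 1.79 ± 0.16. Gata4, shared by Leydig and Sertoli cells, rose by 2.47 ± 0.29 in VCR, and the repressor gene Nr0b2 by 2.31 ± 0.29 for Low-VCR and 2.73 ± 0.29 for High-VCR. Nr4a1, the orphan receptor induced by LH, fell by 1.39 ± 0.24, 0.81 ± 0.24 and 1.33 ± 0.24, and the orphan receptor gene Rora by 1.86 ± 0.24, 0.89 ± 0.24 and 1.47 ± 0.24. Against Sertoli genes 1 of the 15 was higher and 6 lower in VCR against NC.

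Among 15 other steroid-metabolising enzymes tested, 13 rose and 1 fell in each of the 3 comparisons. Hsd17b11, a dehydrogenase of lipid droplets, rose by 2.92 ± 0.22, 2.26 ± 0.21 and 2.84 ± 0.21, and Hsd17b12, which also lengthens fatty acids, by 2.76 ± 0.24 in VCR. Akr1cl, of the aldo-keto reductase family, rose by 2.27 ± 0.25 for Low-VCR and 2.90 ± 0.26 for High-VCR. Hsd17b2, which inactivates testosterone, fell by 2.45 ± 0.42, 1.17 ± 0.40 and 1.64 ± 0.41 from a mean of 1.9 CPM in NC. With Sertoli scaling 6 of the 15 were higher and 5 lower in VCR against NC.

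**Figure D5:**
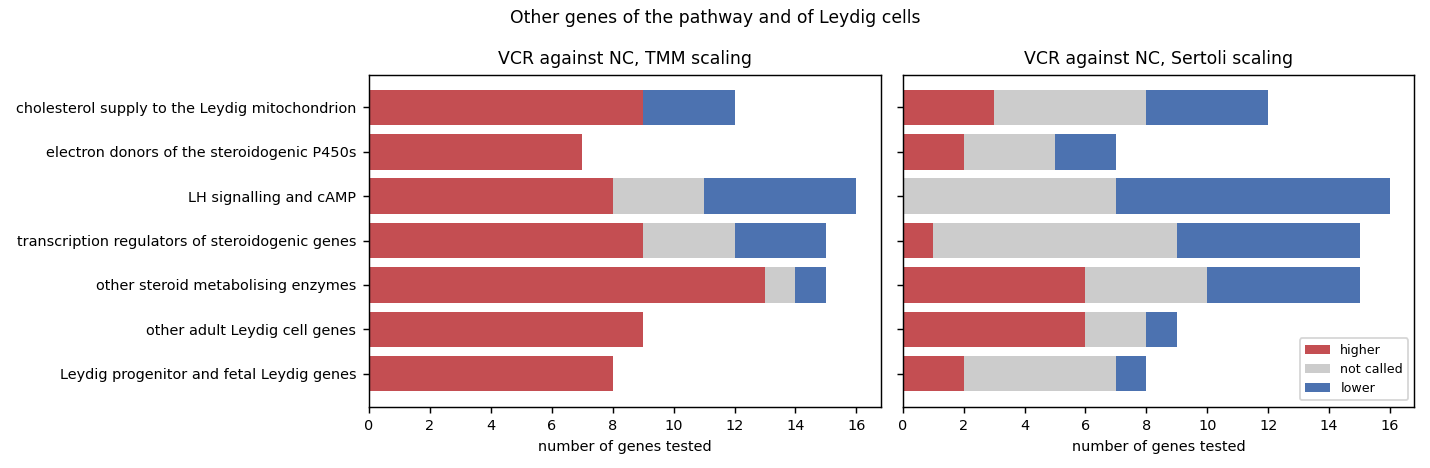
Number of genes called higher, not called and called lower in VCR against NC for 7 lists of other pathway and Leydig cell genes, under TMM scaling (left) and Sertoli scaling (right). Of 9 other adult Leydig cell genes 9 were higher under TMM scaling and 6 under Sertoli scaling, while of 16 genes of LH signalling 8 and none were.

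Other markers of adult Leydig cells moved with the 9 genes under TMM scaling. All 9 on the list rose in each of the 3 comparisons, with median log2 fold changes of 2.69, 1.72 and 2.43. Fabp3, a fatty acid carrier, was at 66 to 138 CPM in NC and 660 to 1220 CPM in VCR, and rose by 3.27 ± 0.27, 2.10 ± 0.26 and 2.69 ± 0.27. Kit, a receptor also made by spermatogonia, rose by 3.07 ± 0.25 in VCR and 2.69 ± 0.25 in High-VCR, and Aldh1a1, which makes retinoic acid, by 2.16 ± 0.25 in Low-VCR. Under Sertoli scaling 6 of the 9 were higher and 1 lower in VCR against NC. In Low-VCR against ALL 1 was higher and 1 lower, where 2.82% of all genes were higher and 77.1% lower. In High-VCR against ALL 5 were higher and 1 lower, where 5.33% of all genes were higher and 75.4% lower. Summed CPM of this list was highest in VCR 1 (5130), VCR 2 (4990), High-VCR 4 (4620) and High-VCR 1 (4520).

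Of 8 progenitor and fetal Leydig cell genes tested, 8 rose in VCR against NC, 5 in Low-VCR against ALL and 7 in High-VCR against ALL, and none fell. Pdgfra, a receptor of Leydig progenitors, rose by 2.65 ± 0.21, 1.45 ± 0.21 and 2.41 ± 0.21. Wnt5a, a secreted signal, rose by 3.39 ± 0.40 in VCR, and Gli1, a target of hedgehog signals, by 1.77 ± 0.21 for Low-VCR and 1.98 ± 0.21 for High-VCR. With Sertoli scaling 2 were higher and 1 lower in VCR against NC.

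The adrenal cortex makes steroids with several of the same enzymes. Its defining genes Cyp11b2 and Mc2r were at 0 to 1.1 CPM in every library, and Cyp11b1 was at 0.197 to 2.4 CPM. Cyp11b1 fell by 1.79 ± 0.48 in VCR against NC (adjusted p = 0.0025, edgeR). The whole list of 6 genes summed to 32.5 to 43.6 CPM in NC and ALL and to 34.1 to 176 CPM in the vincristine groups, and of the 4 genes tested 2 rose and 1 fell in VCR against NC. The genes that rose were Cyp21a1, from 24.9 ± 2.57 CPM (SD, n = 4) to 70.5 ± 35.2 CPM with an adjusted p of 0.00227 in edgeR, and Mrap, by 3.62 ± 0.37 on the log2 scale. Epididymis genes summed to 1.83 to 9.86 CPM and adipocyte genes to 12.4 to 41.3 CPM over all libraries. Erythroid genes summed to 58.9 to 99.3 CPM in ALL and to 130 to 635 CPM in the vincristine groups, every NC library lay below those groups, and of the 5 tested 4 rose and 1 fell in VCR against NC. The part of adrenal and erythroid RNA in the results was not tested.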

How the data were processed

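Whole-testis RNA of 20 libraries was measured as mRNA sequencing, per the labels' protocols, with a directional kit, and how strand was used in counting is not given in the sources used here. Per the submitters' processing notes the tools were Trimmomatic 0.39, STAR 2.7.10b, featureCounts from Subread 2.0.3 and DESeq2 1.36.0, with genome build GRCm39. The authors deposited a table of raw counts per gene symbol, and no gene lengths were used. Libraries hold 9425158 to 16357287 counts, and intervals that rest on them cover the spread between libraries. No 2 libraries of the same group were copies of each other (smallest chi-square per degree of freedom 3.78), and pairs across groups were not checked.

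Groups follow the labels, which record 1 batch. Genes were kept by filterByExpr with a minimum count of 10, scaled with TMM and tested in edgeR 4.0.16 (R 4.3.3) with the quasi-likelihood test, 5 group means and 15 residual degrees of freedom, and p-values were adjusted by Benjamini-Hochberg over 16534 genes at 0.05. Fold changes given as values ± SE are log2 estimates of this fit. Sertoli scaling used median-ratio factors over 22 genes in the same fit. Exact permutation tests used scipy 1.17.1. Alternatives used DESeq2 1.42.0 and limma 3.58.1 (voom), other scalings, filters and references, a replicate block and leaving out each library. The fits were tested on simulated data.

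The members and lists were chosen with earlier results of these data known. Beside the members, the text names from each list the 2 genes called higher and the 2 called lower with the smallest adjusted p in each comparison of vincristine with its untreated group, the 6 genes most like the members' mean at a mean of 1 CPM or more, and genes of other cell types where they bear on a member. Jak3, the other Hsd3b copies and the count ratios were added after values were seen. RefSeq sequences come from GRCm38.p6, another build than the counts.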

Additional observations from a re-analysis of the deposited data

Results flagged for a closer look

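In single libraries, 7 of 100 sets of 4 values held a value far from the other 3, where chance gives about 1 in 20. Cyp17a1 was at 1850 CPM in Low-VCR 2, below the other Low-VCR libraries at 2360 to 2450 CPM. Srd5a1 was at 3.24 CPM in ALL 2 against 4.75 to 4.98 CPM in the others, and at 4.8 CPM in High-VCR 2 against 2.31 to 2.63 CPM. On the Sertoli-relative scale the same libraries stood apart for Srd5a1, ALL 2 at 0.704 against 1.28 to 1.34 and High-VCR 2 at 0.441 against 0.143 to 0.168. Hsd3b1 had a Sertoli-relative level of 2.18 in Low-VCR 4 against 1.89 to 1.9, and of 5.38 in High-VCR 1 against 2.96 to 3.31.

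The vincristine response in Low-VCR, against ALL, differed from that in VCR, against NC, for Hsd3b1 (-1.74 on the log2 scale, adjusted p = 0.0329) and for Nr5a1 (-1.13, adjusted p = 0.041), by the interaction term in edgeR.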

How the results depend on the processing

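Over all alternatives, 2781 of 2990 values of the 10 genes had the same call as reported, 135 lost it and 65 gained one. The other 9 changed sign, with a call in the reported fit, in the alternative or in both. Of 299 counts of called genes, 237 stayed within 1.5 times. The 9 changes of sign arose with macrophage genes as the reference: in VCR against NC Star (-0.51), Hsd3b6 (-1.13), Cyp17a1 (-0.38), Nr5a1 (-0.30), Lhcgr (-0.70) and Insl3 (-0.40), in Low-VCR against ALL Nr5a1 (-0.44), and in High-VCR against ALL Hsd3b6 (-0.45) and Nr5a1 (-0.18). Among them only Star went from called higher to called lower. With that reference 5 genes were called in VCR against NC. In High-VCR against ALL 2 were higher, where 1.19% of all genes were, and 2 lower, where 86.6% were. In Low-VCR against VCR 1 was lower, where 0.242% of all genes were. With endothelial or peritubular genes as the reference 9 were called in Low-VCR against ALL and 0 in High-VCR against Low-VCR. In the latter 0.0726% and 0.163% of all genes were higher and 7.29% and 5.88% lower, in that order. With endothelial genes 1 was lower in Low-VCR against VCR, where 0.405% of all genes were.

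Under TMM scaling, High-VCR against Low-VCR gave 1 gene without the gene filter, 0 with the replicate block, 0 from the 2 groups alone and 8 with limma-voom. Low-VCR against VCR gave 0 from the 2 groups alone and 3 with limma-voom. The smaller response in Low-VCR gave 0 genes with the replicate block, 4 in DESeq2 and 1 under Sertoli scaling. Relative to Sertoli genes, the 2 groups alone gave 5 in Low-VCR against ALL, 0 in Low-VCR against VCR and 0 in High-VCR against Low-VCR. The last also gave 2 in DESeq2 and 0 with the replicate block. Apart from the smaller response under Sertoli scaling, the share of all genes called in these fits is not given here. These counts therefore cannot separate the Leydig genes from how many genes each fit called. The cause of the differences was not tested, apart from the fewer libraries in fits of 2 groups.

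Leaving out each library in turn gave 9 genes throughout in VCR against NC, 9 to 10 in Low-VCR and in High-VCR against ALL, 0 to 4 in High-VCR against Low-VCR, 4 to 8 in Low-VCR against VCR and 0 to 4 for the smaller response in Low-VCR, with 4 without VCR 3. Relative to Sertoli genes the ranges were 7 to 9, 2 to 4, 5 to 7, 0 to 1 and 3 to 5, in the same order of comparisons, and 0 to 2 for the smaller response in Low-VCR, a setting chosen after seeing the data. ALL against NC, High-VCR against VCR and the response in High-VCR against that in VCR stayed at 0 under both scalings. The share of all genes called in each fit without a library is not given here. Same-numbered libraries did not deviate together: r exceeded 0.1 in 5 of 40 pairs, with a median of -0.00957 and a range of -0.384 to 0.526, so the numbers give no pairing. The Sertoli list of earlier work was not run, since it was not at hand. Low counts limit Srd5a1, at 30 to 74 counts a library.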
